A study of Mus musculus with 6 samples.

Results

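The C-type protocadherins are the 5 members that close the alpha and gamma arrays of the clustered protocadherin locus on mouse chromosome 18, namely Pcdhac1 and Pcdhac2 in the alpha array and Pcdhgc3, Pcdhgc4 and Pcdhgc5 in the gamma array. They were chosen with earlier results of these data known, and were matched by symbol among the 54532 gene identifiers counted. They are 2 of 14 alpha members and 3 of 22 gamma members. Their levels were compared between control mice and mice that lose the chromatin repressor gene Mphosph8 from neural cells, in polyA RNA of whole C57BL/6J brains taken at postnatal day 14, with 1 library for each of 3 mice per genotype. Per the labels, the controls were Mphosph8fl/+ Nestin-Cre+ and the mutants, named Mphosph8∆n in the labels, were Mphosph8fl/fl Nestin-Cre+. Both groups therefore carried the Cre transgene and at least 1 floxed allele, although the study's methods name no floxed allele for the controls. By these labels the controls are heterozygous for the deletion in neural cells, and their sample titles carry the tag HET. The fold changes thus compare the mutants with heterozygous brains, not with brains intact for Mphosph8. Nestin-Cre recombines in neural progenitors and their descendants, so that cells of other origin in the brain, such as microglia and vessel cells, keep the gene.

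Clustered protocadherins are cell-surface adhesion molecules. Each member has its own promoter and its own large first exon, which codes for the extracellular and membrane-spanning parts, and within the alpha or gamma array all members are spliced to the same constant exons. The other members of these arrays, called alternate here, are switched on in a mostly random selection in each neuron, whereas the C-types are known for more regular expression that follows the type of cell. MPP8, the product of Mphosph8, belongs to the HUSH complex, which represses transcription in chromatin that carries H3K9me3.

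Libraries held from 12956880 to 15223424 counts, and replicates of a genotype differed by more than sampling noise, as chi-square per degree of freedom was 3.42 to 12.3. Mphosph8 itself lay at 55.8, 48.6 and 70.7 CPM (counts scaled to the effective library size) in control replicates 1 to 3 and at 33.1, 27.2 and 26.5 CPM in mutant replicates 1 to 3. All mutant values were below all control values (log2 fold change -1.02 ± 0.12 SE, edgeR adjusted p = 0.000157). Counts over the whole gene include transcript parts outside the floxed exon. Control replicate 3 stood apart, with 1338 counts of the Y-linked gene Ddx3y against 0 in the other 5 libraries, and with 27 counts of Xist against 11130 to 17697. The labels do not give the sex of the mice. By these counts control replicate 3 came from a male and the other 5 libraries from females, so sex was not balanced between the groups. The fold changes, array shares and ratios to the alternates of the C-types were therefore also computed without control replicate 3.

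C-type transcripts took a smaller part of their arrays in every mutant brain than in any control brain. In the gamma array the 3 C-types together held 58.4%, 56.4% and 57.7% of the counts in control replicates 1 to 3, and 32.0%, 31.7% and 32.3% in mutant replicates 1 to 3. The mean share was 57.5% ± 1.03 in control and 32.0% ± 0.323 in mutant brains (SD, n = 3), a difference of -25.5 percentage points. In the alpha array the 2 C-types together held 48.1%, 48.3% and 52.5% in control and 37.7%, 36.0% and 37.9% in mutant libraries. The means were 49.6% ± 2.50 and 37.2% ± 1.07 (SD, n = 3), a difference of -12.4 points. These sums over members were not tested. A share also falls when the alternate members of the array rise, even if the C-type level stays the same. Each library's share carries a 95% binomial interval (Clopper-Pearson) of at most ± 1.36 points for the gamma sum and ± 3.58 points for the alpha sum, which covers counting error only. The intervals rest on 5125 to 7370 gamma counts and 736 to 971 alpha counts per library. Without control replicate 3 the differences were -25.4 and -11.0 points.

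**Figure D1:**
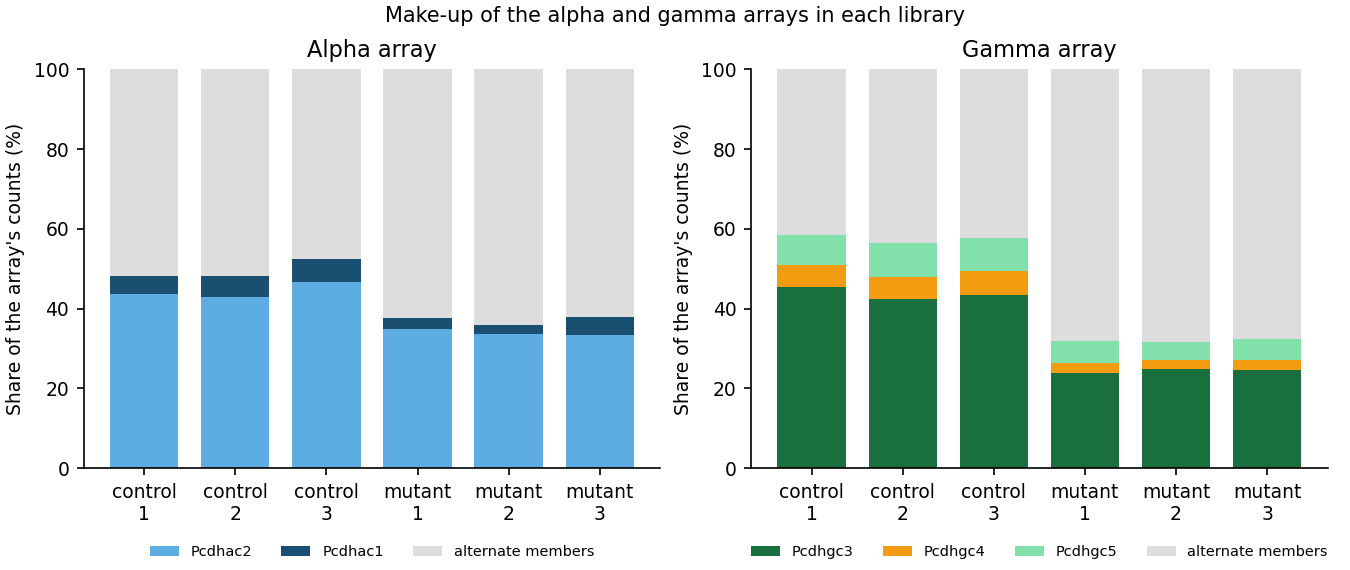
Share of the counts of the alpha array (left) and gamma array (right) held by each C-type member and by the alternate members together, in percent, for each of the 6 libraries. The coloured C-type part stands at 56.4% to 58.4% of the gamma array in the controls and at 31.7% to 32.3% in the mutants, and at 48.1% to 52.5% against 36.0% to 37.9% in the alpha array.

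Taken over all 58 clustered protocadherins, the beta array included, the C-types made up 41.0%, 40.9% and 42.7% of the CPM in control libraries and 22.5%, 20.3% and 21.5% in mutant libraries. This is a mean of 41.6% ± 1.01 against 21.5% ± 1.09 (SD, n = 3). In both arrays the alternate members had a higher mean and the C-types a lower mean in mutant brains. The alternate gamma members together went from 160 ± 16.1 CPM in control to 342 ± 52.5 CPM in mutant brains, while the gamma C-types together went from 216 ± 17.2 to 161 ± 25.2 CPM (SD, n = 3). The alternate alpha members went from 29.3 ± 1.76 to 39.2 ± 8.09 CPM, and the alpha C-types from 29.0 ± 4.65 to 23.2 ± 5.22 CPM. Mutant and control libraries overlapped for the alpha C-type sum alone of these 4 sums. In whole-brain RNA, fewer cells of a type and less RNA per cell cannot be told apart.

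All 5 C-types passed the filter on low counts and were tested, and all 5 had a negative log2 fold change. Of them, 2 passed edgeR's quasi-likelihood test at an adjusted p under 0.05, Pcdhgc3 and Pcdhgc4, both lower in mutant brains. Among the 16731 genes tested, 0.0956% passed in that direction and 0.628% in either direction. With the study's further condition of a more than 2-fold change, which 0.359% of all genes met, 0 of 5 C-types passed in edgeR, DESeq2 or limma-voom. At an unadjusted p under 0.05, which 6.51% of all genes had, Pcdhac1 joined the other two. The same 2 members had all mutant values below all control values, a pattern seen in 5.42% of genes tested. The median log2 fold change over all genes tested was -0.01, and 52.4% of them were negative.

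**Figure D2:**
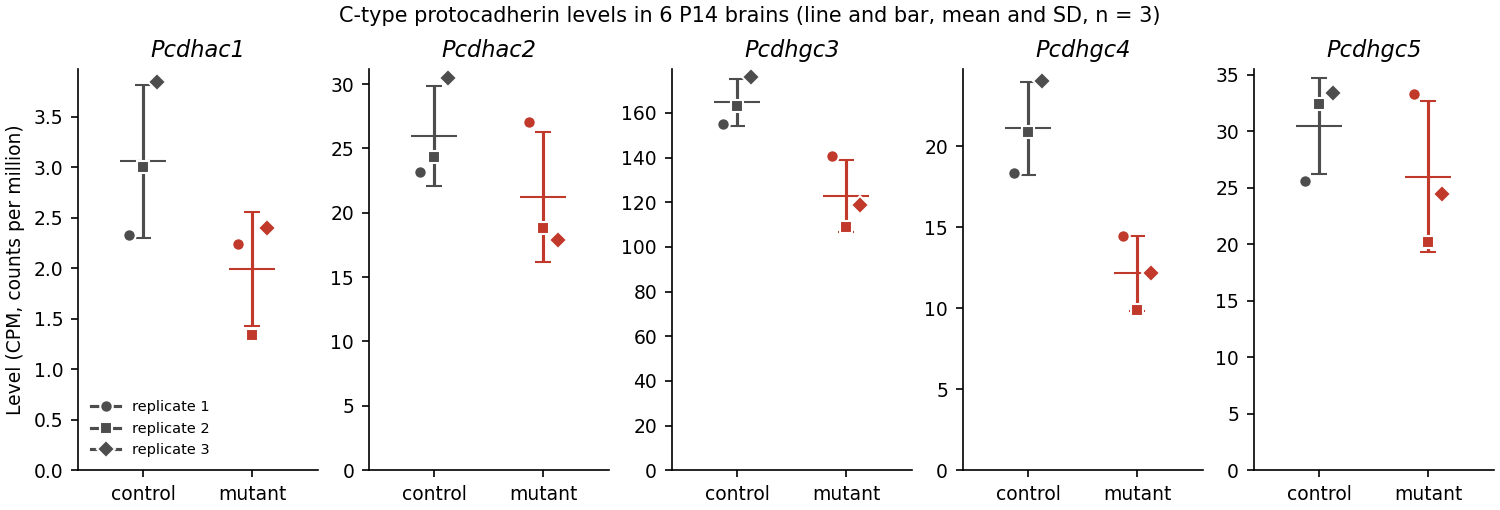
Level of each C-type protocadherin in CPM (vertical axis, from 0, with its own scale in each panel) in 3 control (grey) and 3 mutant (red) brains, with symbols for the replicates and a line and bar for mean and SD. The groups are apart for Pcdhgc3 and Pcdhgc4 and overlap for Pcdhac1, Pcdhac2 and Pcdhgc5.

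Pcdhgc4 showed the largest change of the 5. Its protein is known to be needed for the survival of cortical inhibitory interneurons. The gene (ENSMUSG00000023036) spans chromosome 18, 37815079 to 37841873 on the plus strand of GRCm38. Its 3477 exonic bases shared with no other gene form a single continuous stretch from its start. It was at 18.4, 20.9 and 24.0 CPM in control and 14.5, 9.85 and 12.1 CPM in mutant libraries. The mean fell from 21.1 ± 2.84 to 12.2 ± 2.31 CPM (SD, n = 3), to 0.576 of the control level, with a 95% interval of 0.470 to 0.706. On the log2 scale the fold change was -0.80 ± 0.14 (SE, edgeR adjusted p = 0.00723). Without control replicate 3 it was -0.69 with an adjusted p of 0.0647, and without mutant replicate 2 it was -0.67 with an adjusted p of 0.0625, so the call rested on those libraries. DESeq2 gave an adjusted p of 0.000366 on all 6 libraries. Of the gamma counts, Pcdhgc4 held 5.39%, 5.44% and 5.93% in control and 2.46%, 2.24% and 2.53% in mutant libraries. The difference was -3.18 points (exact two-sided permutation p = 0.1, and no lower p is possible with 3 libraries per group).

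Of 12 markers of inhibitory interneurons, 0 passed edgeR's test, 3 had an unadjusted p under 0.05, and the median log2 fold change was -0.01. Gad1, which codes for an enzyme of GABA synthesis, had a log2 fold change of -0.04 ± 0.08, and Lhx6, a transcription factor of interneurons from the medial ganglionic eminence, one of 0.29 ± 0.13 (SE, edgeR adjusted p = 0.985 and 0.711). The smallest adjusted p of the list was 0.0919, for the neuropeptide gene Cck at -0.36 ± 0.09 (a gene named here after its value was seen), which passed in DESeq2 (adjusted p = 0.0339). The summed level of the 12 ran from 1748 to 1808 CPM in control and from 1766 to 1784 CPM in mutant libraries, inside the control range, beside the fall of Pcdhgc4.

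Pcdhgc3 was the most abundant C-type by far. Its protein promotes dendrite branching in cortical neurons through Axin1, and the gene is also expressed outside neurons, in astrocytes and the choroid plexus among others. The gene (ENSMUSG00000102918) spans 37806364 to 37841873, and 3380 exonic bases are its own. They form a single continuous stretch from its start, as long as a single-exon transcript annotated beside the spliced ones. It was at 155, 163 and 176 CPM in control and 141, 109 and 119 CPM in mutant libraries. The mean fell from 165 ± 10.5 to 123 ± 16.2 CPM (SD, n = 3), to 0.745 of the control level, with a 95% interval of 0.650 to 0.854. The log2 fold change of -0.42 ± 0.09 (SE) passed the test (edgeR adjusted p = 0.0437). The call was a narrow one. Of the 6 fits that left out 1 library, only that without mutant replicate 1 kept it, at an adjusted p of 0.0011. The other fits gave 0.0517 without control replicate 1, 0.155 without control replicate 2, 0.264 without control replicate 3, 0.242 without mutant replicate 2 and 0.216 without mutant replicate 3. DESeq2 on all libraries gave 0.00699.

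The share of Pcdhgc3 moved much more than its level, because the summed alternate gamma members in the array total rose from 160 to 342 CPM. It held 45.5%, 42.5% and 43.5% of the gamma counts in control and 23.9%, 24.8% and 24.7% in mutant libraries, a mean of 43.9% ± 1.54 against 24.5% ± 0.522 (SD, n = 3). The difference of -19.4 points exceeded the spread between replicates, with no overlap (exact two-sided permutation p = 0.1). On the opposite strand, exons of the antisense gene BC037039 cover 1559 of the 3380 own bases of Pcdhgc3. BC037039, picked because of this overlap, was at 4.52, 3.59 and 5.60 CPM in control and 6.48, 2.09 and 2.18 CPM in mutant libraries, with a log2 fold change of -0.37 ± 0.32 (SE, edgeR adjusted p = 0.931). The groups overlapped, and even the highest of these levels is far below that of Pcdhgc3. Axin1 had a log2 fold change of 0.06 ± 0.11 (SE, edgeR adjusted p = 0.979).

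Markers of cells that can express Pcdhgc3 were measured beside it. The 10 astrocyte markers summed to 9538 to 10813 CPM in control and 10421 to 11201 CPM in mutant libraries, and 0 of 10 passed. The largest change among them was 0.26, of Aldh1l1. The 8 markers of choroid plexus and ependyma summed to 1479 to 1781 CPM in control and 1107 to 1318 CPM in mutant libraries, a separation carried by 1 gene, Ttr, at 1381 to 1671 against 1018 to 1214 CPM. The other 7 summed to 97.9 to 110 against 89.3 to 112 CPM, which overlapped, and 3 of them were positive. Of the 8, 0 passed in edgeR. Ttr, the transthyretin gene of the choroid plexus, had the largest change, -0.45 (edgeR adjusted p = 0.0764), and was the 1 marker to pass in DESeq2 and in limma-voom. The 8 markers of mature oligodendrocytes also summed to less in mutants, 17339 to 20114 against 21889 to 26218 CPM. All 8 were negative, and Mal, Mog and Cldn11, which code for myelin proteins, passed at -0.53, -0.49 and -0.49 (edgeR adjusted p = 0.0241, 0.0351 and 0.0496), while DESeq2 passed 6 of the 8. The 8 oligodendrocyte progenitor markers summed to 1579 to 1593 CPM in control and 1361 to 1490 CPM in mutant libraries, and 0 passed. The largest change there was -0.29, of Sox10. The part of these cells in the level of Pcdhgc3 or of any other C-type was not tested.

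For general neuron markers, 0 of 12 passed, and the neurofilament gene Nefm had the largest change, -0.47 (edgeR adjusted p = 0.186). Their sum lay at 7751 to 8239 CPM in control and 7931 to 8239 CPM in mutant libraries, so the labelled tissue carried them throughout. Microglia markers summed to 690 to 773 against 718 to 825 CPM, vessel markers to 866 to 962 against 787 to 924 CPM, and neural progenitor markers to 440 to 522 against 428 to 473 CPM, with 0 of 8 passing in each. DESeq2 and limma-voom also passed 0 markers of these 3 lists, of neurons, of astrocytes and of oligodendrocyte progenitors, and at an unadjusted p under 0.05 edgeR gave 0 for microglia and vessels, 1 each for progenitors, neurons and astrocytes, and 3 for oligodendrocyte progenitors. The largest changes in microglia, vessel and progenitor lists were 0.15 for Csf1r, -0.17 for Rgs5 and -0.30 for Eomes. No listed marker was at 0 over the libraries.

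Pcdhgc5, the last gene of the gamma array, codes for a protein that associates with GABA-A receptors and is expressed late in brain development. The gene (ENSMUSG00000102543) spans 37819513 to 37841873 and has 4606 exonic bases of its own, of which 4366 form a continuous stretch from its start. It was at 25.6, 32.4 and 33.4 CPM in control and 33.3, 20.2 and 24.4 CPM in mutant libraries. Mutant replicate 1 lay among the controls, and the other mutant libraries lay below all of them. The log2 fold change of -0.23 ± 0.15 (SE) did not pass (edgeR adjusted p = 0.893), and the 95% interval of the ratio ran from 0.687 to 1.05 of the control level. Without mutant replicate 1 it was -0.45 (adjusted p = 0.125), without control replicate 3 it was -0.16, and without mutant replicate 2 it was -0.08. Its share of the gamma counts, which the rise of the alternate members lowers as well, was lower in every mutant library. It was 5.64%, 4.59% and 5.08% against 7.51%, 8.44% and 8.25%, a difference of -2.96 points (exact two-sided permutation p = 0.1). Of 14 genes of GABA-A receptors, that of the anchor protein gephyrin among them, 0 passed.

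Pcdhac2, at the end of the alpha array, is the main alpha member of serotonergic neurons, where it is needed for the even spread of their axons. The gene (ENSMUSG00000102697) spans 37143503 to 37187657 and has 3028 exonic bases of its own. It was at 23.1, 24.3 and 30.4 CPM in control and 27.0, 18.8 and 17.9 CPM in mutant libraries. As for Pcdhgc5, mutant replicate 1 lay inside the control range and the other mutant libraries below it. The log2 fold change of -0.29 ± 0.14 (SE) did not pass (edgeR unadjusted p = 0.0551, adjusted p = 0.783), and the interval of the ratio was 0.662 to 1.00 of the control level. Without mutant replicate 1 it was -0.50 (adjusted p = 0.0605), and without control replicate 3 it was -0.16. Pcdhac2 held 43.7%, 42.9% and 46.6% of the alpha counts in control and 34.8%, 33.6% and 33.4% in mutant libraries, a difference of -10.5 points without overlap (exact two-sided permutation p = 0.1). The rise of the alternate alpha members lowers this share as well.

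Of the 8 listed markers of serotonergic neurons 7 were tested, 5 with a negative and 2 with a positive log2 fold change. The median was -0.26, 0 passed in edgeR and 3 had an unadjusted p under 0.05. Htr1a at 0.13 and Maob at 0.06 were the positive ones. The summed level of the 8 overlapped, at 78.6 to 93.9 CPM in control and 71.5 to 82.4 CPM in mutant libraries. Slc6a4 and Tph2, preset in a list chosen with earlier results of these data known, had the most negative changes of that list. The serotonin transporter gene Slc6a4 was at 8.91, 7.76 and 5.47 CPM in control and 4.96, 3.51 and 1.82 CPM in mutant libraries. Tph2, which codes for the enzyme that starts serotonin synthesis in neurons, was at 8.98, 7.18 and 5.40 against 4.96, 3.43 and 2.84 CPM. For both, all mutant values were below all control values, a pattern seen in 5.42% of genes tested. The log2 fold changes were -1.12 ± 0.26 and -0.95 ± 0.22 (SE, edgeR adjusted p = 0.0685 and 0.0702). DESeq2, which passed 121 of 16731 genes, passed both (adjusted p = 0.0184 and 0.0369), and limma-voom neither. The part of these cells in the level of Pcdhac2 was not tested.

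Pcdhac1 was the scarcest C-type. The gene (ENSMUSG00000103255) spans 37090013 to 37187657 and has 2559 exonic bases of its own. It had only 35, 41 and 57 counts in control and 28, 18 and 33 counts in mutant libraries, or 2.33, 3.00 and 3.85 against 2.24, 1.34 and 2.40 CPM. The ranges overlapped narrowly. The log2 fold change of -0.62 ± 0.27 (SE) was the second largest in size but did not pass (edgeR unadjusted p = 0.0363, adjusted p = 0.697), and the interval of the ratio was wide, from 0.439 to 0.970. Without control replicate 3 the value was -0.41 and without mutant replicate 2 it was -0.40. It held 4.39%, 5.30% and 5.89% of the alpha counts in control and 2.88%, 2.40% and 4.48% in mutant libraries. The difference was -1.94 points (exact two-sided permutation p = 0.2), and mutant replicate 3 lay above control replicate 1.

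Levels of different genes were compared per kilobase of own exonic bases. On this scale the order was Pcdhgc3, Pcdhac2, Pcdhgc5, Pcdhgc4 and Pcdhac1 in all 6 libraries. In control brains the means were 48.8 ± 3.12, 8.57 ± 1.29, 6.61 ± 0.921, 6.06 ± 0.818 and 1.20 ± 0.298 CPM per kb (SD, n = 3). In mutant brains they were 36.3 ± 4.80, 7.01 ± 1.66, 5.63 ± 1.45, 3.50 ± 0.664 and 0.779 ± 0.222 CPM per kb. In the controls Pcdhgc5 and Pcdhgc4 differed by less than their SDs, and Pcdhac2 and Pcdhgc5 lay within the sum of theirs. Pcdhgc3 and Pcdhac2 stayed the highest members of their arrays in every library. Pcdhgc4 stood 4th of 22 in each control library but 15th to 17th in the mutants, Pcdhgc5 went from 3rd to between 10th and 12th, and Pcdhac1 went from between 4th and 8th of 14 to 11th or 12th.

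**Figure D3:**
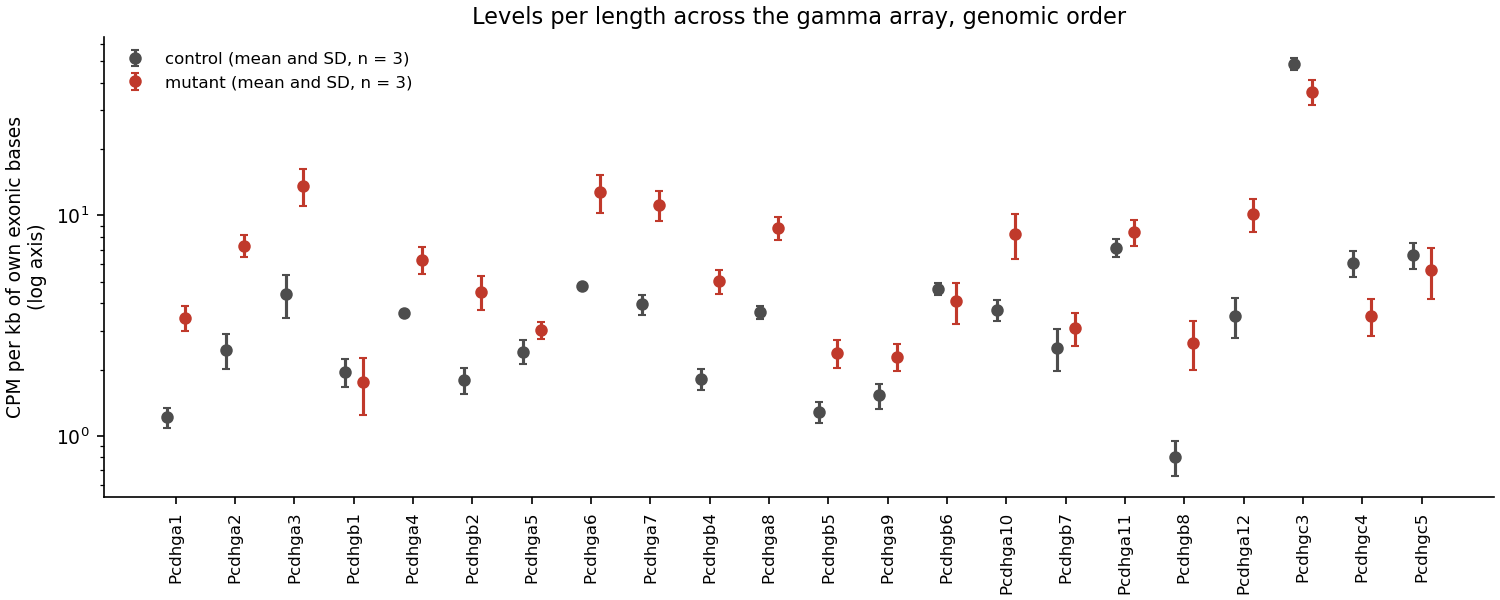
Level per length (CPM per kb of own exonic bases, log axis) of the 22 gamma members in genomic order, mean and SD of 3 control (grey) and 3 mutant (red) brains. Pcdhgc3 is the highest in both groups, at 48.8 and 36.3, and Pcdhgc4 and Pcdhgc5 at the right end lie among the upper control values but among the middle or lower mutant values.

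In these 6 libraries Pcdhgc4 was lower relative to Pcdhgc3 and to Pcdhgc5 in the mutants. For every 100 CPM of Pcdhgc3 there were 11.8, 12.8 and 13.6 CPM of Pcdhgc4 in control and 10.3, 9.03 and 10.2 in mutant libraries. For every 100 CPM of Pcdhgc5 there were 71.7, 64.5 and 71.9 CPM of Pcdhgc4 in control and 43.5, 48.9 and 49.7 in mutant libraries. Neither ratio overlapped between the groups. For Pcdhgc5 per 100 CPM of Pcdhgc3 the values overlapped, at 16.5, 19.8 and 19.0 in control and 23.6, 18.5 and 20.6 in mutant libraries. Those of Pcdhac1 per 100 CPM of Pcdhac2 overlapped too, at 10.1, 12.3 and 12.6 against 8.28, 7.14 and 13.4. These ratios between members were added after the levels were seen and were not tested.

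Within a genotype the libraries fell in a similar order for most C-types. Control replicate 3 was the highest and control replicate 1 the lowest control library for all 5. Mutant replicate 1 was the highest mutant library for all but Pcdhac1. The summed alternate gamma members had the same highest and lowest control libraries and the same highest mutant library, at 142, 167 and 171 CPM in control and 401, 300 and 325 CPM in mutant libraries, so this order was not particular to C-types.

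Most alternate members of these arrays had the opposite sign, though not all. The alternate alpha and gamma members tested numbered 30, of which 27 had a positive and 3 a negative log2 fold change, 13 passed as higher and 1 as lower. All that passed as higher were gamma members, 13 of 19 tested. The neighbour upstream of Pcdhgc3 is Pcdhga12, 40.8 kb before it from start to start. Pcdhga12 rose from 12.4, 19.0 and 16.5 CPM in control to 54.7, 38.9 and 44.9 CPM in mutant libraries (log2 fold change 1.53 ± 0.14 SE, edgeR adjusted p = 4.91e-06), whereas the next 3 members, the C-types, were negative. Diaph1, just beyond the gamma array, was at 0.02 ± 0.09 (SE, edgeR adjusted p = 0.994). Both genes were picked for their place.

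In the alpha array, the direction turned 1 gene earlier. Pcdha12, which lies 69.9 kb before Pcdhac1, is an alternate member, yet it fell from 5.39, 6.37 and 6.34 CPM in control to 3.12, 2.99 and 3.34 CPM in mutant libraries (log2 fold change -0.93 ± 0.18 SE, edgeR adjusted p = 0.0173). The other 10 alternate alpha members tested were positive, up to 1.56 for Pcdha8, and 0 of these passed in edgeR, DESeq2 or limma-voom, although 8 of the 11 had an unadjusted p under 0.05, Pcdha12 included. The median of the 11 was 0.70. Among gamma alternates the log2 fold change ran from -0.19 for Pcdhgb6 to 1.72 for Pcdhgb8 in the B type and from 0.24 for Pcdhga11 to 1.64 for Pcdhga3 in the A type. The beta array, which has no C-type, had positive values for all 21 members tested, from 0.12 for Pcdhb22 to 2.71 for Pcdhb6.

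**Figure D4:**
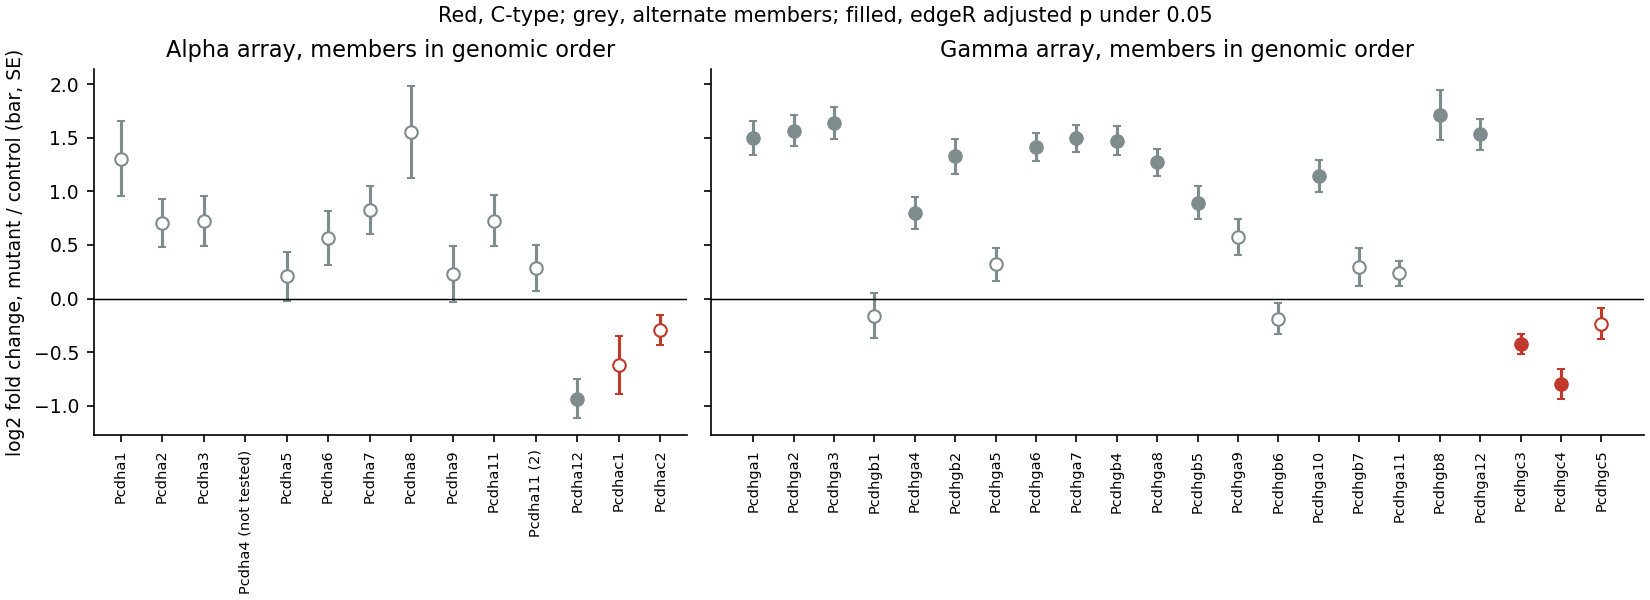
log2 fold change of mutant over control (vertical axis, bar for SE) of alpha members (left) and gamma members (right) in genomic order, with C-types in red, alternate members in grey and filled symbols for an edgeR adjusted p under 0.05. The C-types close both arrays below 0, after Pcdhga12 at 1.53 in the gamma array and Pcdha12 at -0.93 in the alpha array.

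The difference from the alternates was tested directly as the log2 ratio of each C-type to the summed alternate members of its array in the same library. For Pcdhgc3 the ratio was 0.13, -0.04 and 0.04 in control and -1.51, -1.46 and -1.45 in mutant libraries. For Pcdhac2 it was -0.25, -0.27 and -0.03 in control and -0.84, -0.93 and -0.89 in mutant libraries. The ratios changed by -1.52 for Pcdhgc3, -1.89 for Pcdhgc4, -1.34 for Pcdhgc5, -1.03 for Pcdhac1 and -0.71 for Pcdhac2. In each of these 5 comparisons all mutant libraries were below all control libraries, which in an exact two-sided permutation test is p = 0.1, the lower limit of this design. The ratio does not depend on how libraries are scaled to each other. It also falls for a gene of unchanged level when the alternates rise. Their sums had means of 160 and 342 CPM in control and mutant brains for gamma, and 29.3 and 39.2 CPM for alpha. A lower ratio therefore does not by itself show a lower level of the C-type.

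Because clustered protocadherins resemble each other, the own bases of each member were searched for words of 50 bases, about the length of a read, that occur in another annotated gene. Matches to a gene that overlaps the member on the opposite strand, as BC037039 does Pcdhgc3, were left out. On this count each of the 5 C-types had 0%. The median was 14.8% for alternate alpha and 1.40% for alternate gamma members.

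In the lists of promoter regulators, of partners and effectors of protocadherin proteins and of GABA-A receptor genes, 0 genes passed in edgeR, DESeq2 or limma-voom, and 0 had an unadjusted p under 0.05 in edgeR. The 22 promoter regulators, a list that holds neither Mphosph8 nor the HUSH genes Fam208a and Morc2a below, had a median log2 fold change of 0.02. CTCF and cohesin bring promoters and enhancers of the locus together, and Ctcf had a log2 fold change of 0.04 ± 0.08. Smchd1, a chromatin protein that represses the cluster, had one of -0.08 ± 0.09, and Dnmt3b, a DNA methyltransferase that acts on its promoters early in development, one of -0.15 ± 0.24 (SE). For the 23 partners and effectors of protocadherin proteins, such as kinases and actin regulators, the median was -0.01 and the range -0.17 to 0.15. Of 6 HUSH-related genes 2 rose, Fam208a, which codes for the HUSH subunit TASOR, at 0.77 ± 0.12, and Morc2a, which codes for an ATPase that works with HUSH, at 0.45 ± 0.09 (SE, edgeR adjusted p = 0.00141 and 0.0208).

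The protein-coding genes outside the cluster whose levels followed each C-type most closely over the 6 libraries were Stk10 and Gata2 for Pcdhac1 (Pearson r of log2 CPM 0.991 and 0.990) and Ganab and Cd47 for Pcdhac2 (0.998 and 0.994). They were Prokr2 and St7l for Pcdhgc3 (0.995 and 0.992), Prokr2 and Icam2 for Pcdhgc4 (0.993 and 0.992), and Celsr2 and D6Wsu163e for Pcdhgc5 (0.993 and 0.989). Among 14457 genes compared, 77 to 231 per member had r over 0.9, so such values were common over 6 points that share 2 genotypes and the scaling of each library. None of these genes passed the test between genotypes.

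**Figure D5:**
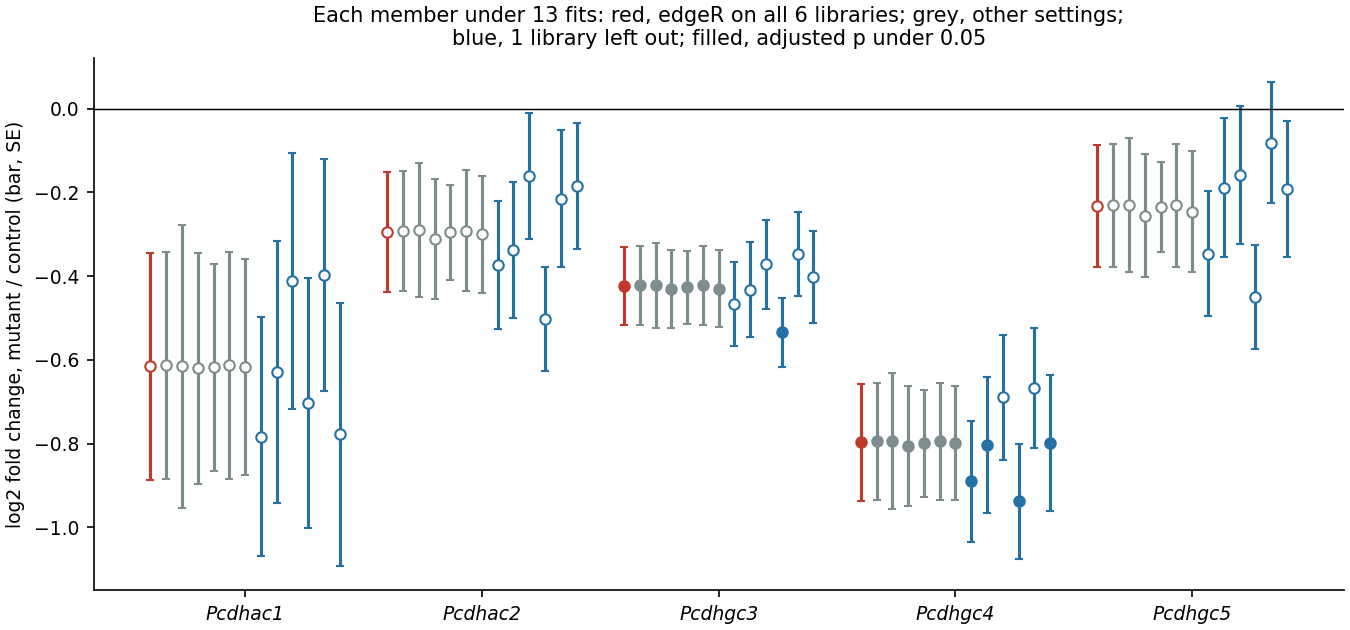
log2 fold change of mutant over control (vertical axis, bar for SE) of each C-type in edgeR on all 6 libraries (red), under other settings (grey) and with 1 library left out (blue), filled where the adjusted p was under 0.05. All values lie below 0, Pcdhgc4 between -0.94 and -0.67, Pcdhgc3 between -0.53 and -0.35, and Pcdhgc5 reaches -0.08.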

How the data were processed

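PolyA RNA of 6 whole mouse brains, 3 per genotype, was sequenced. The authors trimmed the reads with Trim Galore 0.5.0, removed ribosomal, mitochondrial and other unwanted reads with Bowtie2 2.3.4.1, mapped what remained to GRCm38 using STAR, and made the counts with featureCounts (Subread 1.6.2). The deposited values are raw counts per Ensembl gene, from 12956880 to 15223424 per library. The strand setting is not given in the sources used here and was checked on the counts. Of 454 genes that lie wholly opposite exons of the other strand, 27.5% had at least 10 counts, against 33.5% of 42753 genes without overlap and 0.399% of 752 genes wholly within exons of the same strand. The counts thus behaved as stranded, with reads in shared exons left out, so that a protocadherin was counted by its own exonic bases.

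Symbols and exons came from GENCODE M21, which matched 54495 identifiers. In it, 2 identifiers carry the symbol Pcdha11 and Pcdha10 is missing, and 1 alternate alpha member, Pcdha4, was not tested. The main test was edgeR 4.0.16 (R 4.3.3, quasi-likelihood F test, filterByExpr, TMM, genotype as the only term), with Benjamini-Hochberg adjustment over 16731 genes. It was checked on simulated counts. A gene passed at an adjusted p under 0.05. SEs were derived from the F statistic. CPM per kb was computed over own exonic bases. Shares are percentages of an array's counts. Shares and ratios were compared with an exact two-sided permutation test, and correlations used log2(CPM + 0.5). The alternatives tried were DESeq2 1.42.0, limma-voom (limma 3.58.1), RLE size factors in edgeR, no filter, at least 1 CPM in 3 libraries, the replicate number as a block and each library left out.

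The members and gene lists were chosen with earlier results of these data known. The text names the members, Mphosph8, the alternates with the largest and smallest change per list, genes of the functional lists that passed, a few preset genes, the marker with the largest change where a result touches it, the 2 genes most like each member, and sex-linked genes. Genes said to be picked by place or after their values were seen lie outside this rule. 1 preset gene is not reported here.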

Additional observations from a re-analysis of the deposited data

How the results depend on the processing

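All 5 C-types kept a negative log2 fold change in each of 12 alternative fits, and all shares and ratios kept their sign in the 84 values recomputed. RLE size factors, DESeq2, limma-voom, both filters on low counts and the replicate block left the same number of C-types passing, 2. With 1 library left out the number ran from 0 to 2, and it was 0 without control replicate 3 and without mutant replicate 2. It was also 0 with the 2-fold condition. In those fits the log2 fold change of Pcdhgc3 ran from -0.53 to -0.35 and that of Pcdhgc4 from -0.94 to -0.67. Pcdhac1, Pcdhac2 and Pcdhgc5 passed in 0 of 12. With the replicate number as a block, the values were -0.43 for Pcdhgc3 and -0.80 for Pcdhgc4 (edgeR adjusted p = 0.0302 and 0.00424). Correlations of same-numbered libraries' deviations were 0.10, -0.05 and 0.08, and the block was therefore kept out of the main test. Per kb of own bases, the share differed by -2.17 points for Pcdhgc5 and by -24.2 points for the gamma C-types together. Against the mean log2 of the alternates in place of their sum, the ratio changed by -1.37 for Pcdhgc3, -1.72 for Pcdhgc4 and -1.19 for Pcdhgc5. Over all genes 105 passed, against 242 with no filter on low counts, 162 without mutant replicate 1, and from 66 to 69 without control replicate 1, 2 or 3 or mutant replicate 3. The cause of these shifts was not tested. With 3 libraries per group no exact permutation test can go below 0.1, and 18 to 57 counts limit Pcdhac1.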
